A study of Mus musculus with 6 samples.

Results

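Vascular calcium and potassium channels were taken here as 10 genes, namely Cacna1c, Kcnmb1, Kcnma1, Kcnn4, Atp2a2, Atp2b1, Itpr1, Ryr2, Pln and Stim1, and each was followed through the array probe sets whose annotation names that gene alone. Of the 10 genes, 9 had such a probe set, with 27 probe sets in all, among 18193 genes measured this way. Itpr1 is not analysed here. The question asked of these genes was whether their mRNA levels differed in injured carotid arteries between mice that overexpress IRF9 in smooth muscle and their controls.

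Arteries came from SMC-IRF9-TG mice, in which an HA-tagged mouse IRF9 cDNA of full length is driven by the SM22α promoter, a promoter active in smooth muscle cells. The controls were non-transgenic mice (NTG). Both groups were C57BL/6 by the labels, male and 10 to 12 weeks old by the methods, and the carotid arteries of both had undergone wire injury 14 days before collection, so that no uninjured artery entered the comparison. Each group had 3 arrays, and each array held RNA pooled from 3 to 5 vessels. The study's phenotypic work mainly used the transgenic line of highest expression, and neointima was also examined in other transgenic lines. The sources used here do not say which animals shared a pool, so the p-values below measure the spread between these pools. All values are log2 signals of Affymetrix probe sets, and 1 unit is a doubling.

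Vascular smooth muscle cells (VSMCs) set vessel tone through cytosolic calcium. Calcium enters from outside through voltage-gated L-type channels, is released from the sarcoplasmic reticulum through ryanodine and inositol trisphosphate receptors, and is cleared by pumps in the reticulum and in the plasma membrane. Calcium-activated potassium channels oppose this by hyperpolarizing the membrane. In contractile VSMCs the large-conductance channel predominates, whereas the intermediate-conductance channel is known from proliferating VSMCs, and also from T cells, macrophages and endothelial cells. IRF9 itself is the DNA-binding subunit of the interferon-activated complex ISGF3, which recognizes the interferon-stimulated response element.

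The promoters of Atp2b1, Kcnn4 and Kcnma1 are shown because these had the largest differences of the 9 measured genes among their brightest or called probe sets. They are the 250 bases before a RefSeq start site on the GRCm38.p6 build, 5′ to 3′ on the strand of the gene, and capitals mark CpG dinucleotides. Atp2b1 lies on the plus strand at chr10:98914392-98914641, Kcnn4 on the plus strand at chr7:24370013-24370262, and Kcnma1 on the minus strand at chr14:24004206-24004455.
Atp2b1: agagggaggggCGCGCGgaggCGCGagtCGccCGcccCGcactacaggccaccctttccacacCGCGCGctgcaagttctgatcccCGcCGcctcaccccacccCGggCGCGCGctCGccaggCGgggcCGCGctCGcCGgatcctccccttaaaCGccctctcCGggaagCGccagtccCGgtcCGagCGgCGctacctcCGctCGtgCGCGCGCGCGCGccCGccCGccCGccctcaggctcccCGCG
Kcnn4: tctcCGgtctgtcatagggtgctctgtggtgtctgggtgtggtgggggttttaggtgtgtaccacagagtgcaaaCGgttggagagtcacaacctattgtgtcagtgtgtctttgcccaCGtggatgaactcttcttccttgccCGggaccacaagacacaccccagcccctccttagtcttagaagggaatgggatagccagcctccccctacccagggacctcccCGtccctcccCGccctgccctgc
Kcnma1: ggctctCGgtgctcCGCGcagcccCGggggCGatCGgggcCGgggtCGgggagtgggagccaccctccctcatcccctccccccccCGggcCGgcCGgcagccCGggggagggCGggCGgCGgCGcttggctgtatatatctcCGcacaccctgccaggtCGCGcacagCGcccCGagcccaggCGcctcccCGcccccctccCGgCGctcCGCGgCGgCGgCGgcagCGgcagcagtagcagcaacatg

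The shown Atp2b1 window held 43 CpG dinucleotides and 78.4% G and C bases, and the Kcnma1 window held 31 CpG and 79.2%. The table holds a second Atp2b1 window, at chr10:98914902-98915151, with 41 CpG and 80.8%. The Kcnn4 window was much poorer, with 6 CpG and 58.8%, against a median of 6 CpG and 52.4% over 32851 RefSeq windows. The 300-base windows around the start sites (250 bases before and 50 after) were also searched on both strands for the core of the interferon-stimulated response element, GAAANNGAAA, and for the AP-1 motif, TGANTCA, neither of which contains the other. The response element core was present in 3.44% of all windows and the AP-1 motif in 7.81%. Among the genes studied, 11 windows of 8 genes were in the table, and 0 of the 11 held either motif, which says only that these letters are not in these windows.

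Some arrays stood apart before any channel gene was considered. Xist probe set 1436936_s_at read 3.43, 2.94 and 3.72 on the SMC-IRF9-TG arrays, against 9.94, 9.50 and 4.08 on NTG arrays 1, 2 and 3, although the methods give male mice. NTG array 2 also had the widest gap between the 3′ and 5′ probe sets of the actin control, 7.09, against 1.56 to 2.50 on the SMC-IRF9-TG arrays and 2.21 and 3.04 on the other NTG arrays. The poly-A spike-in controls averaged 5.03, 4.55 and 9.14 on the SMC-IRF9-TG arrays, against 11.75, 7.53 and 10.01 on the NTG arrays. Several results that lean on such arrays are therefore also given without them or with a block. The blocks were for the arrays of high Xist, or for those of low poly-A controls (SMC-IRF9-TG arrays 1 and 2). Irf9, measured by 1421322_a_at, read 5.46, 5.41 and 5.58 in SMC-IRF9-TG arteries, against 4.75, 5.43 and 5.36 in NTG arteries, so that the groups overlapped at this probe set. Whether it reads the transcript of the transgene, which is a cDNA with an SV40 polyA signal, is not given in the sources used here. The study reported higher IRF9 protein in SMC-IRF9-TG arteries by western blot and by staining.

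The smooth muscle content of the pools was checked with 8 contractile markers, of which 0 passed the test (limma, adjusted p under 0.05), with a median difference of 0.14. Acta2, smooth muscle actin, read 13.63, 13.48 and 13.56 in SMC-IRF9-TG arteries, against 13.28, 13.37 and 13.60 in NTG arteries. Macrophage markers differed strongly: 9 of 10 were higher in SMC-IRF9-TG arteries, with a median difference of 3.62, and only Cd163 was not. The summed macrophage signal ranged from 11.68 to 12.12 in SMC-IRF9-TG arrays, against 7.44 to 8.21 in NTG arrays, and 3 of 4 fibroblast markers were also higher. Of the T cell markers, 0 of 6 passed, and of the endothelial markers 1 of 8 did (Tie1). In such whole-vessel RNA, fewer cells of a type and less RNA per cell cannot be told apart.

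**Figure D1:**
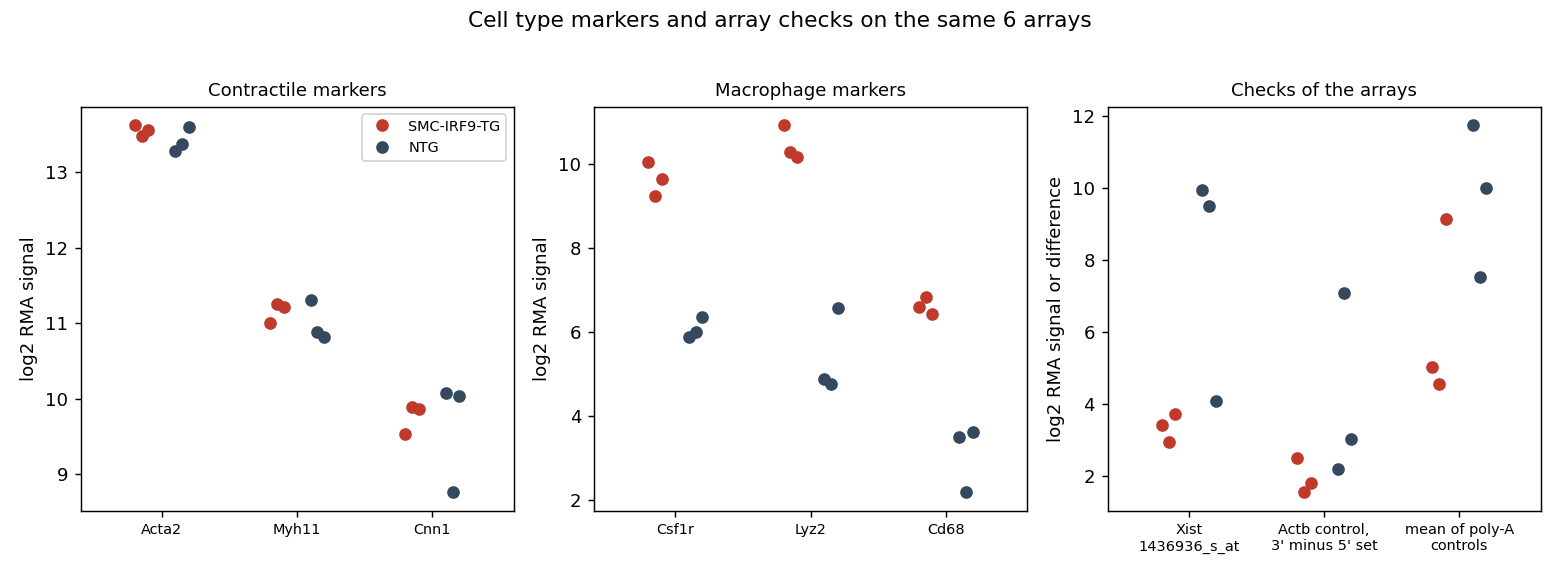
Log2 signals of 3 contractile markers (left) and 3 macrophage markers (middle), and checks of the arrays (right: Xist, the gap between 3′ and 5′ actin controls, and the mean of 24 poly-A spike-in control probe sets), with 1 point per array, SMC-IRF9-TG left of NTG. Contractile markers overlap, macrophage markers do not, and Xist is high on NTG arrays 1 and 2 only.

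When the 9 genes were taken by their brightest probe sets, 0 were called higher and 0 lower in SMC-IRF9-TG arteries, where 3.11% of all genes were called higher and 0.511% lower. Over their 27 probe sets, 2 were called higher and 0 lower, against 2.37% and 0.373% of all probe sets, and both belonged to Atp2b1. At an unadjusted p under 0.05 there were 3 of the 9 genes, Kcnn4 higher and Kcnma1 and Cacna1c lower, where 14.9% of all genes were higher and 9.81% lower at that level. The methods' t-test called 0 of the 9 genes after adjustment. Over all 45037 probe sets it called 0 higher and 1 lower, so failing it says little about any single probe set. The arrays of the groups did not overlap for the same 3 genes, which is close to the 32.2% of all genes for which this was so. The median difference was −0.18 over the 9 genes, against −0.05 over all genes. By probe set the medians were close, −0.17 over the 27 and −0.13 over all.

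**Figure D2:**
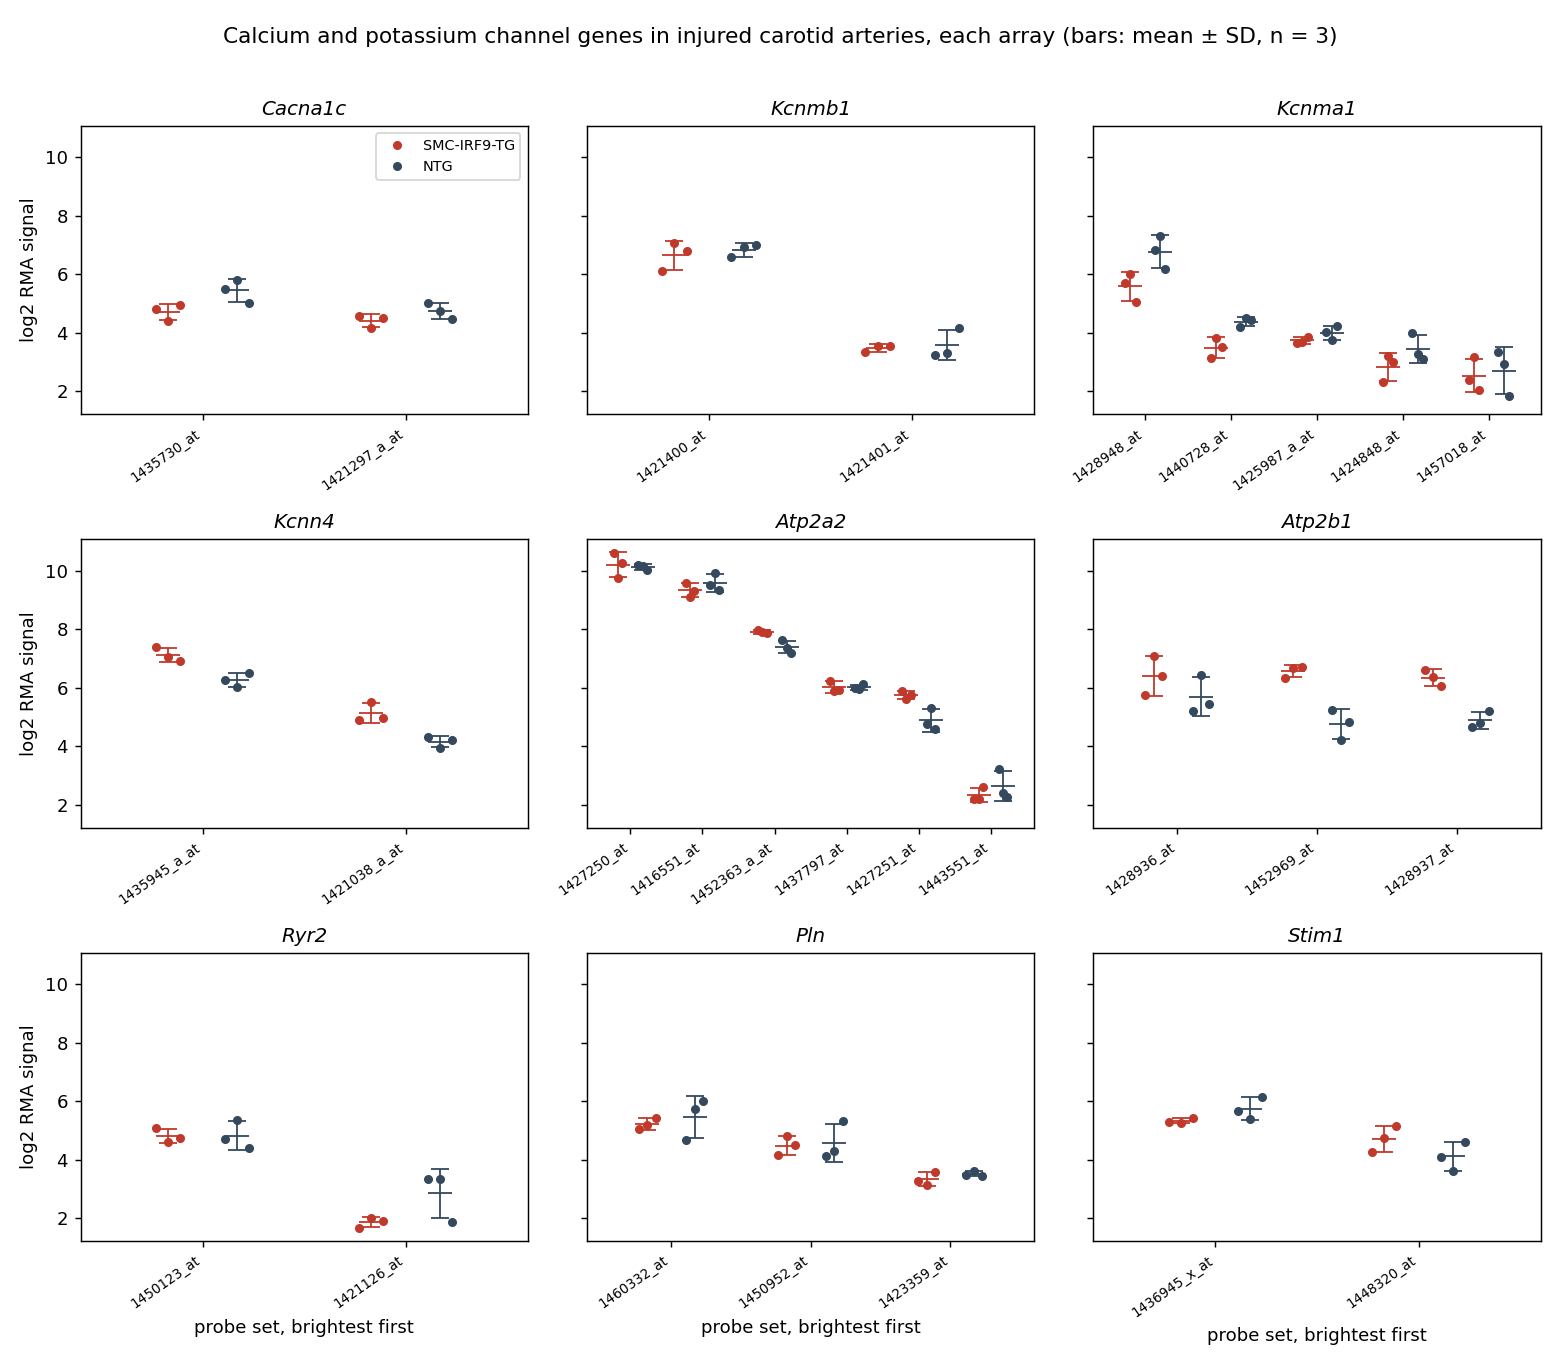
Log2 signal of the 27 probe sets on each array (points), with mean and SD as bars (n = 3), SMC-IRF9-TG left of NTG and the brightest probe set of each gene first. The SMC-IRF9-TG points lie above all NTG points for both Kcnn4 probe sets, 2 of Atp2b1 and 2 of Atp2a2, and below them for 2 of Kcnma1 and 1 of Cacna1c.

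Calcium entry was represented by Cacna1c, the pore-forming subunit of the L-type channel. Its brighter probe set 1435730_at read 4.80, 4.41 and 4.95 in SMC-IRF9-TG arteries, against 5.51, 5.81 and 5.03 in NTG arteries. Each SMC-IRF9-TG array lay below each NTG array, the nearest pair by a narrow margin. The difference was −0.73 (SE 0.26, 95% interval −1.32 to −0.14) and did not pass after adjustment (limma, adjusted p = 0.159). A block for the arrays of high Xist reduced it to −0.31, and the poly-A block to −0.50. Without NTG array 2 it was −0.55 (adjusted p = 0.209). The other probe set, 1421297_a_at, gave 4.58, 4.16 and 4.50 in SMC-IRF9-TG arteries, against 5.02, 4.75 and 4.49 in NTG arteries, with groups that overlapped and a difference of −0.34 (adjusted p = 0.373).

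The large-conductance potassium channel is formed by Kcnma1, its pore, and Kcnmb1, the accessory subunit that raises its calcium sensitivity in smooth muscle. Kcnma1 probe set 1428948_at read 5.69, 6.03 and 5.05 in SMC-IRF9-TG arteries, against 6.83, 7.30 and 6.19 in NTG arteries. The groups did not overlap, and NTG array 3 lay closest to the SMC-IRF9-TG values. The difference of −1.19 (SE 0.34, 95% interval −1.96 to −0.41), equal to a 2.27-fold lower signal, did not pass (adjusted p = 0.108). With a block for the arrays of high Xist, which leaves the difference to NTG array 3, it was −0.60. With the poly-A block it was −1.72, and without NTG array 2 it was −0.92 (adjusted p = 0.145).

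Kcnma1 was covered by 4 further probe sets, all with negative differences, although that of 1457018_at turned to 0.01 with quantile normalization and to 0.71 with the Xist block. Probe set 1440728_at read 3.14, 3.83 and 3.53 in SMC-IRF9-TG arteries, against 4.20, 4.51 and 4.44 in NTG arteries, again without overlap (difference −0.88, SE 0.23, adjusted p = 0.0848). Here NTG array 3 was as high as the other NTG arrays. The difference with the Xist block was −0.94, which again rests on NTG array 3 alone. Without NTG array 2 the difference was −0.82 and did not pass (adjusted p = 0.101). The dimmer 1424848_at, 1425987_a_at and 1457018_at had overlapping groups and differences of −0.61, −0.26 and −0.17. Thus 2 of the 5 probe sets separated the groups and 0 of the 5 passed the test.

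Kcnmb1 showed no such separation. Its probe set 1421400_at read 6.11, 7.06 and 6.79 in SMC-IRF9-TG arteries, against 6.58, 6.93 and 7.01 in NTG arteries, a difference of −0.18 with a 95% interval of −0.81 to 0.44 (adjusted p = 0.697). The other probe set, 1421401_at, was dimmer, at 3.33, 3.54 and 3.56 in SMC-IRF9-TG arteries and 3.24, 3.32 and 4.17 in NTG arteries. Its difference was −0.10 (95% interval −0.72 to 0.52). Both intervals leave room for a change in either direction.

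Kcnn4 encodes the intermediate-conductance calcium-activated potassium channel. Its brighter probe set 1435945_a_at read 7.39, 7.06 and 6.93 in SMC-IRF9-TG arteries, against 6.27, 6.02 and 6.51 in NTG arteries. Every SMC-IRF9-TG array exceeded every NTG array. The difference was 0.86 (SE 0.22, 95% interval 0.36 to 1.36), a 1.82-fold higher signal that missed the threshold (adjusted p = 0.0813). The second probe set, 1421038_a_at, read 4.89, 5.52 and 4.97 in SMC-IRF9-TG arteries, against 4.33, 3.94 and 4.21 in NTG arteries. It had no overlap either, and its difference of 0.97 (SE 0.23, 95% interval 0.43 to 1.50) also missed the threshold (adjusted p = 0.0719).

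Kcnn4 crossed the threshold under a few settings. After each array was centred on its median, 1435945_a_at differed by 0.96 (adjusted p = 0.0452), and the mean of both probe sets differed by 0.91 (adjusted p = 0.0360). With the Xist block the brighter probe set differed by 0.62, and with the poly-A block by 0.66. Leaving out 1 array gave differences of 0.73 to 0.98, and 0 of these 6 fits passed (adjusted p = 0.0583 to 0.286). The macrophage signal was also higher in SMC-IRF9-TG arteries, as given above. All 6 measured T cell markers had positive differences (median 0.3) and 0 passed, and 1 of 8 endothelial markers passed as higher. The part of any of these cell types in the Kcnn4 result was not tested. For each pair of arrays, 1 from each group, Kcnn4 was thus higher and Kcnma1 (1428948_at and 1440728_at) lower in the SMC-IRF9-TG array. This contrast was noticed after the values were seen, is given with no test and restates the lack of overlap. Such a lack held for 32.2% of all genes, and the other Kcnma1 probe sets did overlap.

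**Figure D3:**
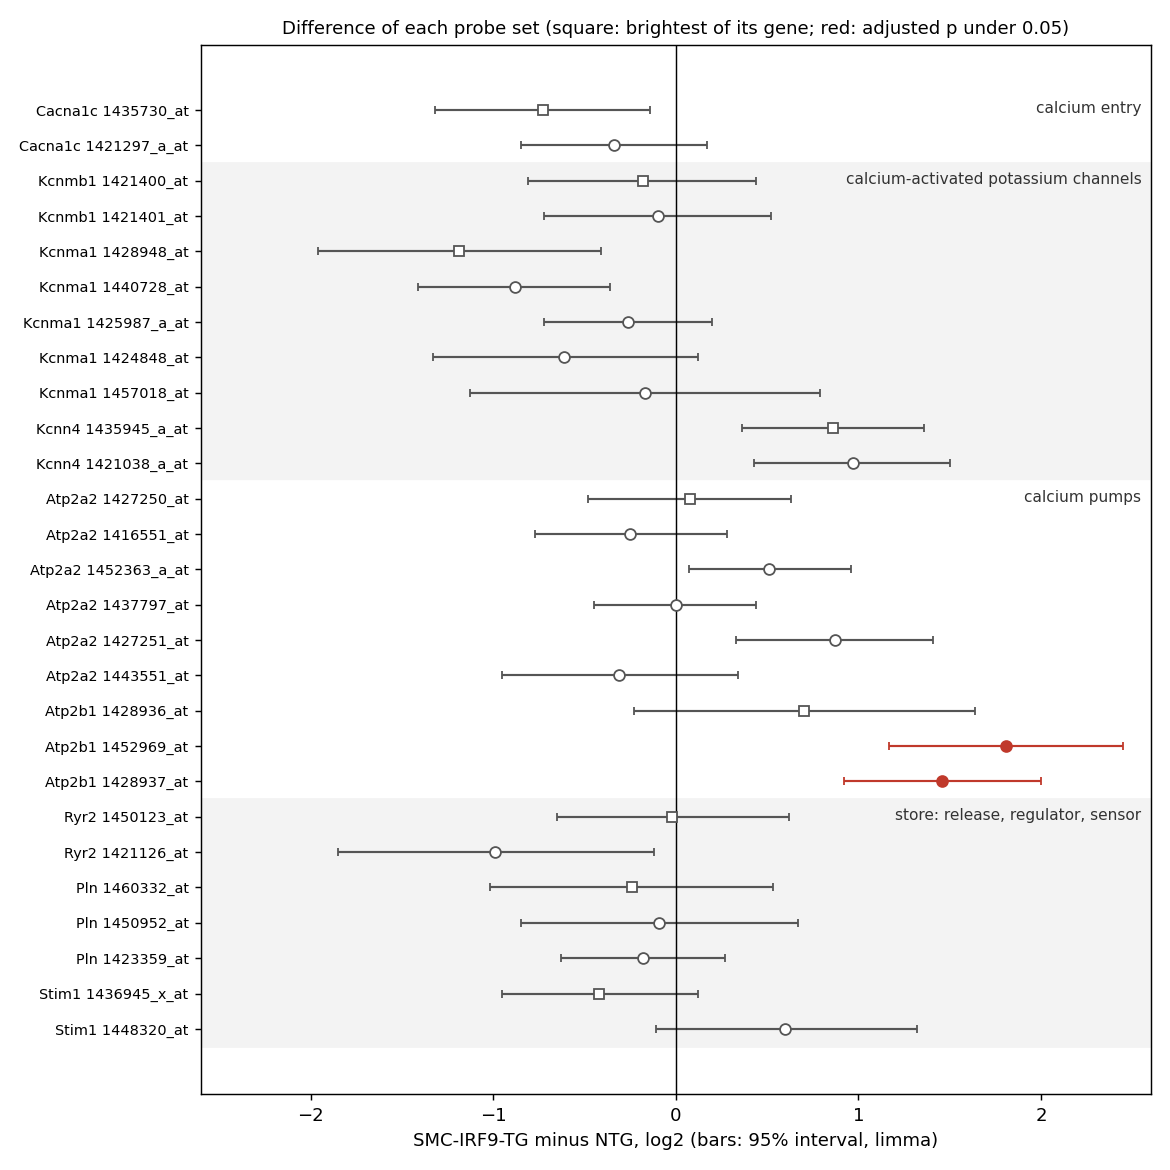
Log2 difference (SMC-IRF9-TG minus NTG) for the 27 probe sets by role, with 95% intervals from limma (n = 3 arrays per group), squares for the brightest probe set of each gene and red for an adjusted p under 0.05. Only the Atp2b1 probe sets 1452969_at and 1428937_at are red, at 1.81 and 1.46.

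Calcium clearance gave the only calls. Atp2b1 encodes PMCA1, the plasma membrane calcium pump found in most tissues, including VSMCs. Probe set 1452969_at read 6.33, 6.68 and 6.72 in SMC-IRF9-TG arteries, against 5.25, 4.23 and 4.83 in NTG arteries. The lowest SMC-IRF9-TG array was above the highest NTG array by more than the range within either group. The level averaged 6.58 ± 0.21 in SMC-IRF9-TG arteries and 4.77 ± 0.51 in NTG arteries (SD, n = 3 each), a difference of 1.81 (SE 0.28, 95% interval 1.17 to 2.45) and a 3.51-fold higher signal (adjusted p = 0.0152).

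Probe set 1428937_at also rose, with 6.62, 6.37 and 6.05 in SMC-IRF9-TG arteries, against 4.65, 4.81 and 5.21 in NTG arteries. The averages were 6.35 ± 0.28 in SMC-IRF9-TG arteries and 4.89 ± 0.29 in NTG arteries (SD, n = 3 each). The difference was 1.46 (SE 0.24, 95% interval 0.92 to 2.0), a 2.75-fold higher signal (adjusted p = 0.0179). Its lowest SMC-IRF9-TG value, 6.05, stood above its highest NTG value, 5.21, by more than the range within either group.

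The brightest Atp2b1 probe set behaved differently. Probe set 1428936_at read 5.74, 7.08 and 6.39 in SMC-IRF9-TG arteries, against 5.20, 6.45 and 5.45 in NTG arteries. It was highest on array 2 of each group, and the groups overlapped. Its difference of 0.70 (SE 0.41, 95% interval −0.23 to 1.64) did not pass (adjusted p = 0.328). This is why Atp2b1 was not counted as called when each gene was taken by its brightest probe set, and the mean of its 3 probe sets differed by 1.32 (adjusted p = 0.00762). Which transcripts of Atp2b1 each probe set reads is not given in the tables used here.

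The Atp2b1 calls were sensitive to the arrays while the direction was not. Across 13 alternatives, 1452969_at differed by 1.54 to 2.05 and remained called in 10, and 1428937_at differed by 1.18 to 1.62 and remained called in 7. These ranges leave out the blocks for the arrays of high Xist and of low poly-A controls. With the Xist block the differences were 1.75 and 1.14 (adjusted p = 0.132 and 0.148), and with the poly-A block 1.95 and 1.16 (adjusted p = 0.251 and 0.498). Without SMC-IRF9-TG array 2 both calls were lost (adjusted p = 0.0837 and 0.0920), without SMC-IRF9-TG array 3 that of 1452969_at was (0.0710), and without SMC-IRF9-TG array 1 that of 1428937_at was (0.0897). By the methods' t-test, which called 0 higher among all 45037 probe sets, neither passed (adjusted p = 0.146 and 0.133). The call of 1428937_at was also lost with quantile normalization (1.18, adjusted p = 0.0518) and with the replicate block (0.0551). Without NTG array 1 the differences were 2.05 and 1.34 (adjusted p = 0.0252 and 0.0632), and without NTG array 2 they were 1.54 and 1.42 (adjusted p = 0.0202 and 0.0354). The macrophage and fibroblast signals were higher on the same arrays, and their part in the Atp2b1 result was not tested.

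**Figure D4:**
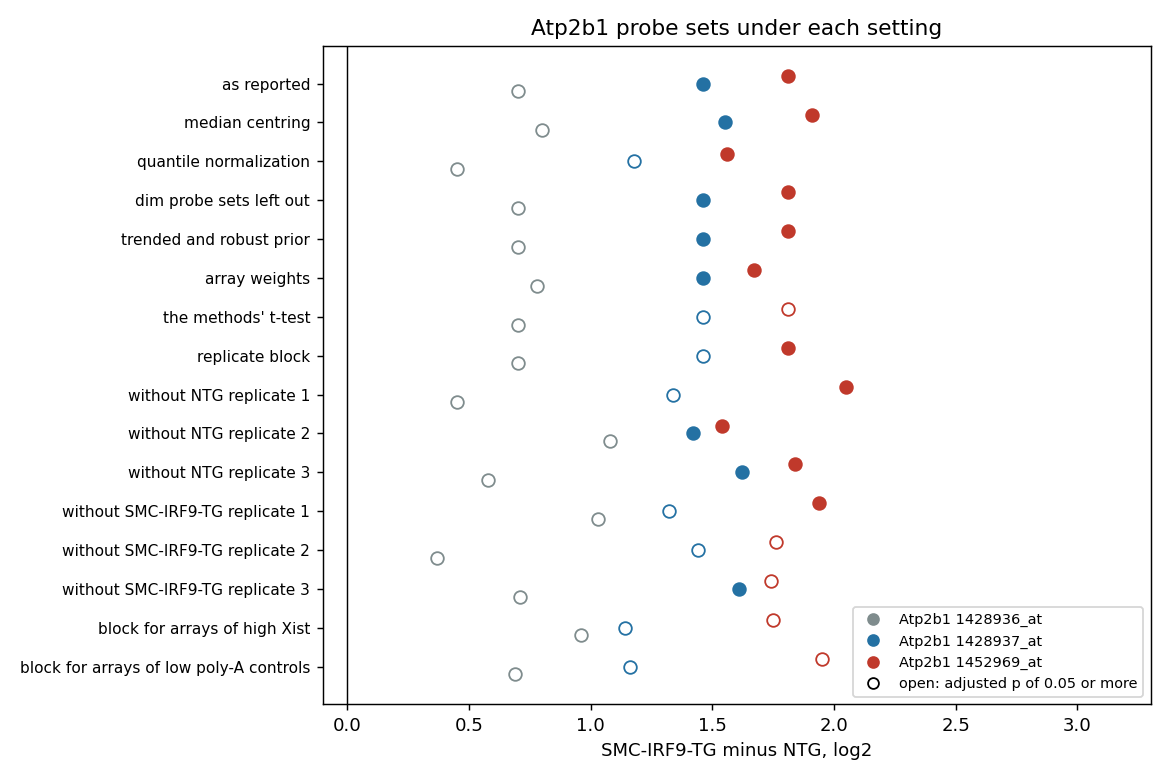
Log2 difference (SMC-IRF9-TG minus NTG) for the 3 Atp2b1 probe sets as reported and under 15 alternatives that keep the probe sets apart, filled where the adjusted p was under 0.05. All points lie above 0, 1452969_at between 1.54 and 2.05, and 1428936_at is open in every setting plotted.

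Among 11736 genes with a probe set of their own and a mean above the median of all probe sets, those whose levels ran most like Atp2b1 1452969_at over the 6 arrays were Snd1 (Pearson r = 0.9998), Lonrf1 (0.9980), Nupr1 (0.9959), Bri3bp (0.9952) and Fbln2 (0.9949). These are descriptions over 6 arrays of 2 groups that share the genotype step. Fbln2, an extracellular matrix protein of injured vessels, averaged 8.75 in SMC-IRF9-TG arteries and 6.26 in NTG arteries, a difference of 2.49 (adjusted p = 0.0168). Nupr1, a stress-induced nuclear protein, differed by 1.30 (adjusted p = 0.0355), and Lonrf1 by 0.73 without passing (adjusted p = 0.0899).

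Atp2a2 encodes SERCA2, which refills the sarcoplasmic reticulum, and had the highest signal of the genes studied. Its brightest probe set 1427250_at read 10.60, 9.76 and 10.26 in SMC-IRF9-TG arteries, against 10.19, 10.18 and 10.02 in NTG arteries. The NTG arrays lay within the range of the SMC-IRF9-TG arrays, and the difference was 0.08 (95% interval −0.48 to 0.63, adjusted p = 0.866). The next, 1416551_at, read 9.60, 9.11 and 9.32 in SMC-IRF9-TG arteries, against 9.52, 9.92 and 9.33 in NTG arteries (difference −0.25, adjusted p = 0.524).

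The other Atp2a2 probe sets differed among themselves. Probe set 1427251_at read 5.90, 5.63 and 5.74 in SMC-IRF9-TG arteries, against 4.75, 5.32 and 4.58 in NTG arteries. The groups did not overlap, and the difference of 0.87 (SE 0.24, 95% interval 0.33 to 1.41) missed the threshold (adjusted p = 0.0935). It passed without NTG array 2 (1.09, adjusted p = 0.0307) and with array weights (0.96, adjusted p = 0.0473). Probe set 1452363_a_at was also higher on each SMC-IRF9-TG array, at 7.99, 7.90 and 7.86, against 7.63, 7.36 and 7.20 in NTG arteries (difference 0.51, adjusted p = 0.179). The remaining 1437797_at and 1443551_at had overlapping groups, with differences of 0.00 and −0.31, and the mean of 1443551_at over the 6 arrays was under their lower quartile.

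Pln encodes phospholamban, the inhibitor of SERCA2. Its brightest probe set 1460332_at read 5.05, 5.20 and 5.44 in SMC-IRF9-TG arteries, against 4.66, 5.74 and 6.02 in NTG arteries. The SMC-IRF9-TG arrays lay inside the wider NTG range. The difference was −0.24 (95% interval −1.02 to 0.53, adjusted p = 0.675), and those of 1450952_at and 1423359_at were −0.09 and −0.18.

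Release from the store was represented by Ryr2, the ryanodine receptor best known from the heart. Probe set 1450123_at read 5.08, 4.60 and 4.75 in SMC-IRF9-TG arteries, against 4.72, 5.37 and 4.39 in NTG arteries, a difference of −0.02 (95% interval −0.65 to 0.62, adjusted p = 0.974). The dim 1421126_at read 1.67, 2.0 and 1.91 in SMC-IRF9-TG arteries, against 3.33, 3.33 and 1.88 in NTG arteries. NTG array 3 thus sat among the SMC-IRF9-TG values, while NTG arrays 1 and 2, those of high Xist, were higher. Its difference of −0.99 did not pass (adjusted p = 0.182) and passed only without NTG array 3 (−1.47, adjusted p = 0.0180). The SMC-IRF9-TG mean was under the lower quartile of the arrays, so the size is not known.

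Stim1 is the calcium sensor of the reticulum that opens store-operated entry when the store is empty. Its probe sets pointed in opposite directions. Probe set 1436945_x_at read 5.29, 5.27 and 5.43 in SMC-IRF9-TG arteries, against 5.68, 5.40 and 6.16 in NTG arteries (difference −0.42, 95% interval −0.95 to 0.12, adjusted p = 0.310). Probe set 1448320_at read 4.27, 4.73 and 5.14 in SMC-IRF9-TG arteries, against 4.09, 3.63 and 4.62 in NTG arteries (difference 0.60, 95% interval −0.11 to 1.32, adjusted p = 0.280). The groups overlapped for both, and the mean of the probe sets differed by 0.09.

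The wider calcium and potassium machinery was followed through 8 lists with 123 genes, of which 113 were measured, the 9 genes above included. By brightest probe set, 0 of the 113 passed as higher, 1 passed as lower and 112 failed the test, against the 3.11% and 0.511% of all genes given above. Negative differences outnumbered positive ones, 72 to 41, with a median of −0.14. Over all genes they did so too, 9774 to 8419, with a median of −0.05. The median over all probe sets was −0.13, and it was 0.13 once dim probe sets were left out. At an unadjusted p under 0.05, 16 genes were higher and 17 lower, beside the 14.9% and 9.81% of all genes at that level, and the methods' t-test called 0 after adjustment.

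The gene that passed was Slc8a2, a sodium-calcium exchanger known chiefly from brain, one of 12 pumps and exchangers (median difference −0.20). Probe set 1438262_at read 2.67, 2.54 and 2.65 in SMC-IRF9-TG arteries, against 4.16, 4.49 and 3.97 in NTG arteries. The groups were far apart, and the difference was −1.59 (SE 0.20, adjusted p = 0.00778). The call was lost without SMC-IRF9-TG array 2 (adjusted p = 0.0519), with the Xist block (0.0927), with the poly-A block (0.228) and by the methods' t-test (0.0994). The SMC-IRF9-TG values were dim, close to the lower quartiles of the arrays, which ranged from 2.33 to 2.66 over all 6 arrays. The dimmer probe set 1428054_at differed by −0.15 (adjusted p = 0.626).

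Among 12 subunits of voltage-gated calcium channels, 0 passed and 11 had a negative difference (median −0.24), where 9774 of all 18193 genes were negative. For Cacna1s and Cacnb4 a group mean lay under the lower quartile of the arrays. The brightest were Cacna2d1, an auxiliary subunit, at 8.07, 7.76 and 7.73 in SMC-IRF9-TG arteries, against 7.15, 7.29 and 7.38 in NTG arteries (difference 0.58, adjusted p = 0.143), and Cacna1c. By brightest probe set, Cacna2d1 was the single subunit with a positive difference. Its 5 probe sets differed by −0.29 to 1.07, and their mean by 0.24 (adjusted p = 0.385). In the 9 calcium-activated potassium channel genes, 0 passed, Kcnn4 alone had a positive difference, and the median was −0.29.

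Voltage-gated potassium channels had 14 genes measured and 0 called (median −0.21). Kcnab1, an auxiliary subunit, read 6.16, 6.41 and 7.84 in SMC-IRF9-TG arteries, against 7.96, 8.14 and 8.29 in NTG arteries (difference −1.33, adjusted p = 0.121). SMC-IRF9-TG array 3 lay near the NTG values, and without it the difference was -1.85 and passed (adjusted p = 0.0217). With the poly-A block, which leaves that array alone, the difference was -0.29 (adjusted p = 0.867), and the mean of both Kcnab1 probe sets differed by -0.50 (adjusted p = 0.460). Kcnh2, which encodes the hERG channel in humans, had overlapping groups and a difference of 0.08 (adjusted p = 0.923). Of 12 inward rectifier, ATP-sensitive and K2P channel genes 0 were called, with a median of −0.11. Abcc9 and Kcnj11, a sulfonylurea receptor and a pore subunit of ATP-sensitive potassium channels, differed by 0.19 and −0.24 (adjusted p = 0.625 and 0.496).

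Store release channels and their regulators had 21 genes measured and 0 called, with a median of −0.24. Calr, calreticulin, the calcium-binding chaperone of the reticulum, read 11.12, 10.59 and 11.03 in SMC-IRF9-TG arteries, against 10.42, 9.74 and 10.06 in NTG arteries (difference 0.84, adjusted p = 0.113). Fkbp1a, which binds release channels, differed by 0.35 (adjusted p = 0.315). Of 16 store-operated and TRP channel genes, 0 were called and 10 had a positive difference, and this was the only list with a positive median (0.09). Saraf, which slows store-operated entry, read 9.67, 9.36 and 9.25 in SMC-IRF9-TG arteries, against 8.84, 8.84 and 8.81 in NTG arteries (difference 0.60, adjusted p = 0.138).

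Ano1, a calcium-activated chloride channel placed in the same list, read 8.89, 8.34 and 9.26 in SMC-IRF9-TG arteries, against 7.51, 8.17 and 7.48 in NTG arteries (1459713_s_at, difference 1.11, adjusted p = 0.0895). By this probe set, Ano1 passed in 1 of 14 alternatives (lowest adjusted p = 0.0186), a count that leaves out both blocks. Its other probe set 1426571_at did pass, with a difference of 1.29 (adjusted p = 0.0334), but not without NTG array 1 or any 1 of the SMC-IRF9-TG arrays (adjusted p = 0.0876 to 0.142), with quantile normalization (0.0787), with the Xist block (0.193), with the poly-A block (0.304) or by the methods' t-test (0.156). In the 17 genes of calcium-dependent contraction and signalling 0 passed (median −0.05). Myl9, the regulatory myosin light chain, differed by 0.79 (adjusted p = 0.394) with a low value of 9.76 on NTG array 2 alone, and Cald1, caldesmon, by −0.09 (adjusted p = 0.803).

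**Figure D5:**
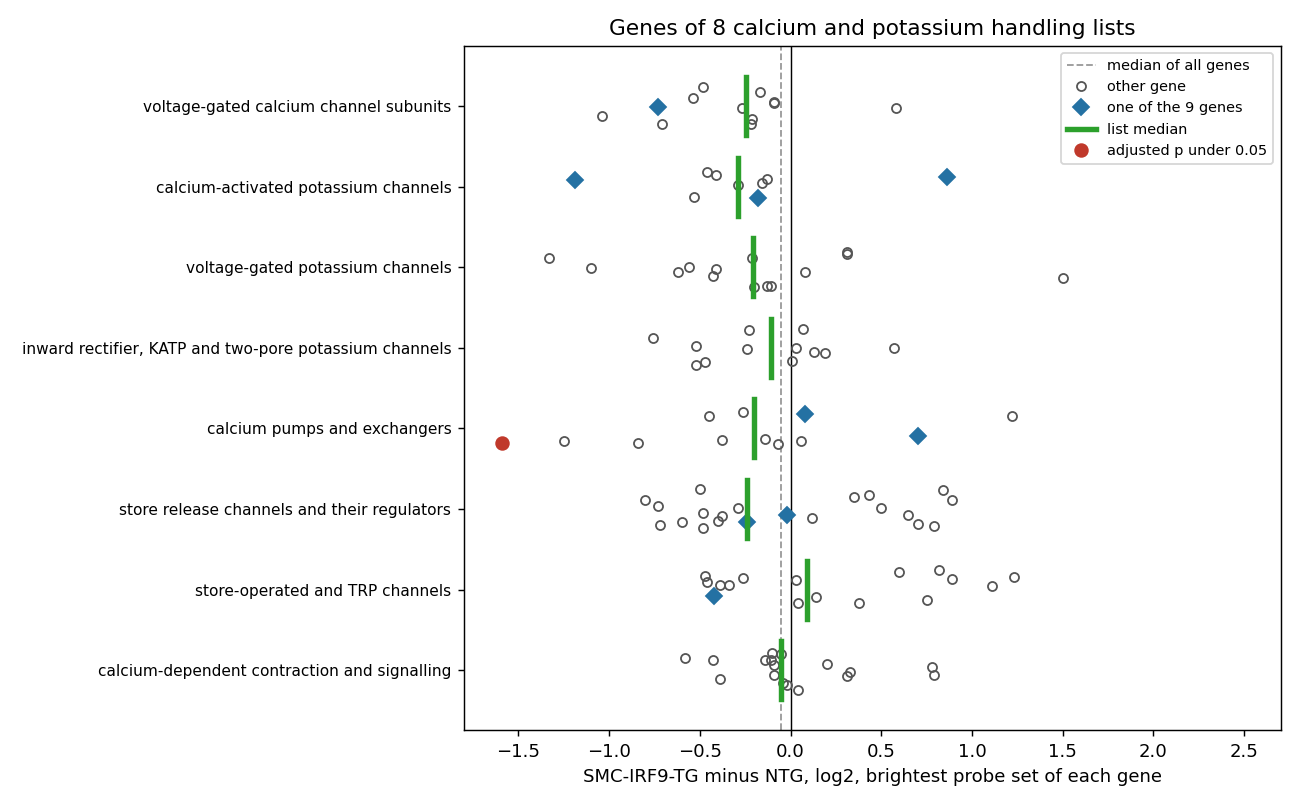
Log2 difference (SMC-IRF9-TG minus NTG) for each measured gene of the 8 lists by its brightest probe set (n = 3 arrays per group), with diamonds for the 9 channel and pump genes, green lines for list medians and a dashed line for the median of all genes, −0.05. The single filled red point is Slc8a2 at −1.59.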

How the data were processed

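RNA pools from SMC-IRF9-TG and NTG carotid arteries were hybridized from 400 ng of total RNA to Affymetrix arrays, 3 per genotype, and all 6 arrays were used. The deposited values are log2 probe-set signals computed by the authors with RMA, which combines background correction, quantile normalization of arrays and summary of the probes of a set. The submitters' processing notes name Affymetrix Expression Console, and its version is not given in the sources used here. The array medians still ranged from 3.42 to 3.66, and detection per probe set was not checked, so the lowest signals may not exceed background. No column of another sample was used, and precision is limited by the number of arrays.

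Of 45101 probe sets, 64 controls were left out and 45037 tested. Annotation names 1 gene for 34945, several for 932 and none for 9160. Groups were compared with limma 3.58.1 (lmFit, eBayes) in R 4.3.3, 2-sided, with Benjamini-Hochberg adjustment over all 45037 and a threshold of 0.05. The methods give a t-test for the study and none for the array, so it was an alternative. An exact permutation test of single probe sets cannot go below p = 0.1 with 3 arrays against 3. A gene was taken by its probe set of highest mean, and all probe sets of the 10 genes are described. The lists had up to 4 called genes named, or the 2 brightest where none passed; Ano1 1426571_at was named after its values were seen. The genes and lists were chosen with earlier results of these data known. The alternatives are named in the closing section, apart from limma with a trended and robust prior. Where a probe set is said to pass in some of 13 or 14 alternatives, the Xist block and the poly-A block are left out of the count. Scripts were tested on simulated data first. Tables and figures used Python 3.11.15, pandas 2.3.3, scipy 1.17.1 and matplotlib 3.10.9. Promoters are from RefSeq (GRCm38.p6), with windows for 8 of the 10 genes.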

Additional observations from a re-analysis of the deposited data

How the results depend on the processing

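Under every alternative run, the direction of Cacna1c, of Kcnma1 1428948_at and 1440728_at, of Kcnn4 and of Atp2b1 held throughout. The count of the 9 genes called was 0 higher and 0 lower, and it became 1 higher with median centring (Kcnn4) or at a threshold of 0.1, 2 higher when each gene was the mean of its probe sets (Atp2b1 and Kcnn4), and 1 lower with the replicate block (Kcnma1 1428948_at, -1.19, adjusted p = 0.0486). The replicate numbers do not pair the arrays (correlations of deviations -0.15, -0.000604 and 0.027). Of 27 probe sets, 2 were called higher and 0 lower, against 1 higher and 1 lower with the replicate block, 1 higher with quantile normalization, 0 with the methods' t-test, the Xist block or the poly-A block, and 5 higher and 1 lower at a threshold of 0.1. Leaving out 1 array gave 0 to 3 higher (0 without SMC-IRF9-TG array 2) and 0 to 1 lower. Of the 113 list genes, 0 were higher and 1 lower. This became 2 and 1 with median centring or without dim probe sets, 0 and 2 with quantile normalization or the replicate block, 1 and 2 with array weights, 3 and 3 with the mean of probe sets, 6 and 4 at a threshold of 0.1, and 0 and 0 with the t-test or either block. Leaving out 1 array gave 0 to 2 higher and 0 to 2 lower, and 0 lower without SMC-IRF9-TG array 2. The cause of these shifts was not tested, except that the Xist block leaves NTG array 3 alone in the difference and the poly-A block SMC-IRF9-TG array 3.

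Some differences changed sign, none of them past the threshold before or after. With median centring Atp2a2 1437797_at was 0.09, Ryr2 1450123_at 0.08 and Pln 1450952_at 0.00; with quantile normalization Kcnma1 1457018_at was 0.01 and Atp2a2 1427250_at -0.20; and with array weights Atp2a2 1437797_at was 0.00 and Ryr2 1450123_at 0.09. With the Xist block Kcnma1 1457018_at was 0.71, Atp2a2 1416551_at 0.01, Atp2a2 1443551_at 0.06 and Ryr2 1450123_at 0.42. With the poly-A block Pln 1423359_at was 0.07, and by the mean of their probe sets Stim1 was 0.09 (-0.42 by its brightest probe set) and Camk2d -0.01 (0.78 by its brightest, adjusted p = 0.0707). Of the list genes named, Kcnh2 was -0.23 with quantile normalization, -0.07 with array weights and -0.22 with the Xist block, Abcc9 was -0.06 with quantile normalization and -0.22 with the poly-A block, and Cald1 was 0.00 with median centring and 0.07 with the Xist block. Leaving out 1 array, the ranges that crossed 0 were -0.39 to 0.09 for Kcnmb1 1421400_at, -0.27 to 0.20 for 1421401_at, -0.61 to 0.16 for Kcnma1 1457018_at, -0.12 to 0.30 for Atp2a2 1427250_at, -0.12 to 0.07 for 1437797_at, -0.23 to 0.25 for Ryr2 1450123_at, -0.65 to 0.03 for Pln 1460332_at, -0.32 to 0.28 for 1450952_at, -0.29 to 0.53 for Kcnh2 and -0.18 to 0.03 for Cald1.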

Other observations

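Several further probe sets of the calcium and potassium lists passed the test although the brightest probe set of their gene did not. They were chosen after their values were seen. Asph, which encodes aspartate beta-hydroxylase and, in short forms, the reticulum proteins junctin and junctate, had a probe set 1420959_at at 6.25, 6.37 and 6.26 in SMC-IRF9-TG arteries, against 4.62, 4.91 and 4.77 in NTG arteries. The difference was 1.53 (SE 0.18, adjusted p = 0.00587), and the call was lost with the Xist block (0.0665), the poly-A block (0.201) and the methods' t-test (0.0729). The 5 other Asph probe sets differed by -0.93 to 0.43, and 0 of them passed. Trpm7, a channel with a kinase domain, read 6.01, 5.81 and 5.93 in SMC-IRF9-TG arteries, against 4.61, 4.06 and 4.93 in NTG arteries (1416800_at, difference 1.38, adjusted p = 0.0271), a call lost without NTG array 1 or any 1 of the SMC-IRF9-TG arrays (adjusted p = 0.0769 to 0.119), with quantile normalization (0.0637), with the Xist block (0.173), with the poly-A block (0.445) and by the methods' t-test (0.150). Its brightest probe set 1416799_at differed by 1.23 in the same direction without passing (adjusted p = 0.0677). That probe set passed in 3 of 14 alternatives, among them without NTG array 2 (1.52, adjusted p = 0.0215). The mean of the 4 Trpm7 probe sets differed by 0.46 (adjusted p = 0.201).

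The other plasma membrane calcium pump genes were Atp2b2, Atp2b3 and Atp2b4. Atp2b2 did not pass with any probe set, and its brightest, 1433888_at, differed by -0.38 (adjusted p = 0.379). Probe set 1445679_at of Atp2b3 was dim, at 2.32, 2.13 and 2.25 in SMC-IRF9-TG arteries, against 3.42, 3.63 and 3.26 in NTG arteries (adjusted p = 0.0174). That call was lost without NTG array 1 or any 1 of the SMC-IRF9-TG arrays (adjusted p = 0.0536 to 0.0974), with quantile normalization (0.0598), the replicate block (0.0551), the Xist block (0.130) or the poly-A block (0.415), and by the methods' t-test (0.101). The brightest Atp2b3 probe set, 1442645_at, was at -0.45 (adjusted p = 0.232), and the size of the called difference is not known because the SMC-IRF9-TG mean lies under the lower quartile. Atp2b4 read 5.26, 5.44 and 5.55 in SMC-IRF9-TG arteries, against 7.04, 6.98 and 5.97 in NTG arteries (difference -1.25, adjusted p = 0.0706). Its high values were those of the NTG arrays of high Xist. The difference passed in 3 of 14 alternatives, among them without NTG array 3 (-1.60, adjusted p = 0.0139), while with the Xist block it was -0.55. Atp2c1, the calcium and manganese pump of the Golgi apparatus, read 7.02, 6.54 and 6.18 in SMC-IRF9-TG arteries, against 5.37, 5.70 and 5.02 in NTG arteries (difference 1.22, adjusted p = 0.0579). Atp2c1 passed in 2 of 14 alternatives, among them without NTG array 2 (1.39, adjusted p = 0.0466). Its 5 probe sets differed by -0.65 to 1.22, and their mean by 0.23 (adjusted p = 0.459).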
